A study of Homo sapiens with 4 samples.

Results

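The peaks described here are the TEAD4 binding sites called on human chromosome 14 (hg19) in 2 gastric cancer cell lines, 1001 peaks in MKN28 and 444 in SNU216. They were taken by chromosome name from the authors' peak lists and are 1445 of the 51017 peaks of both lists. Each line gave 1 chromatin immunoprecipitation (ChIP-seq) library made with a TEAD4 antibody and 1 input library of sonicated DNA, and the labels give no treatment or genotype for either line. MKN28 is recorded in cell line registers as a derivative of the gastric line MKN74, and SNU216 is a separate gastric carcinoma line. The question was whether the larger part of the SNU216 list that falls on chromosome 14 is spread along the chromosome or sits in a few places. Chromosome 14 was chosen by its peak counts in these lists, so the counts are given as a description. With 1 library per line there is no replicate check and no test of a difference between the lines. Intervals are exact 95% intervals that cover counting error only, and neighbouring peaks are not independent of each other.

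TEAD4 is a DNA-binding protein of the TEAD family, which has little activity of its own and works through the co-activators YAP and TAZ. The Hippo kinases keep YAP and TAZ out of the nucleus, so TEAD sites are where this pathway meets the genome, often at enhancers shared with the AP-1 factors FOS and JUN. Chromosome 14 carries several genes of that circuit: SAV1, the scaffold of the Hippo kinases, and FRMD6 in 14q22.1, AJUBA, a LIM protein that binds the LATS kinases, in 14q11.2, and FOS, BATF and JDP2 in 14q24.3. Its short arm holds ribosomal RNA genes and repeats. These band positions are textbook background. Without an hg19 annotation or genome, no peak was assigned to a gene and no peak sequence is shown.

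SNU216 placed 3.85% of its peaks on chromosome 14 and MKN28 placed 2.54%, a ratio of shares of 1.52 (interval 1.35 to 1.70), the highest of the 23 chromosomes compared. A ratio of 1 means that both lists place the same part of their peaks there. If SNU216 peaks had followed the MKN28 division among chromosomes, 292.4 would have lain on chromosome 14 in place of 444, an excess of 151.6 peaks. Both lists contributed to this ratio. Densities divide all peaks of a chromosome by its Mb outside bands of centromere, stalk and variable heterochromatin. Peaks inside such bands are thus counted too. Chromosome 14 carried 5.03 SNU216 peaks per Mb against 4.07 on the others, and 11.3 MKN28 peaks per Mb against 14.1. It ranked 5 of 23 in SNU216 density and 17 of 23 in MKN28 density. Chromosome 3, with 4.87 and 11.1 peaks per Mb in SNU216 and MKN28, had nearly the same pair of densities. Chromosome 20 was richer in both lists, at 8.81 and 21.7 per Mb.

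**Figure D1:**
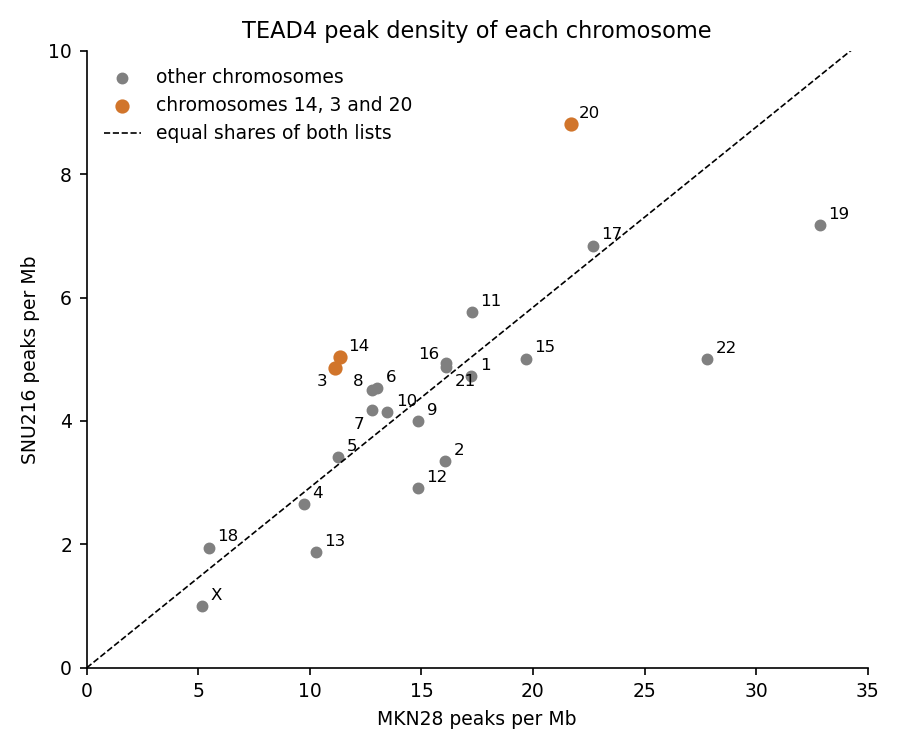
All peaks of a chromosome per Mb of its sequence outside heterochromatic bands in MKN28 (x axis) and SNU216 (y axis), 1 point per chromosome. The dashed line marks equal shares of both lists. Chromosomes 14 and 3 lie close together above the line, at 11.3 and 11.1 MKN28 peaks per Mb, and chromosome 20 lies above it at a higher density.

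Averaged over chromosome 14, the sites that both lines held were about as dense as elsewhere, and the densities that differed were those of sites in 1 list only. Overlapping SNU216 peaks (at least 1 bp shared with an MKN28 peak) numbered 2.41 per Mb on chromosome 14 and 2.43 per Mb on the other chromosomes. SNU216 peaks without an MKN28 peak numbered 2.62 per Mb on chromosome 14 against 1.64 elsewhere, rank 2 of the 23 chromosomes. MKN28 peaks without an SNU216 peak numbered 8.95 per Mb on chromosome 14 against 11.7 elsewhere. A peak called in 1 line only can still be bound in the other below the calling threshold.

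No peak of either list lay on the short arm. The first peaks were in 14q11.2, with midpoints at 19204938 in MKN28 and 19197265 in SNU216, and the last reached 14q32.33. The chromosome was cut into blocks of 5 Mb, of which 19 held peaks, each with at least 10 peaks of both lists together. The last block, from 105 Mb to the chromosome end at 107349540, is shorter. SNU216 peaks were over-represented in most blocks. The ratio of shares was above 1 in 17 of the 19 blocks, against 50.3% of the 583 such blocks of all chromosomes. It was at least 1.5 in 11 blocks, against 17.7% over all chromosomes. Its interval lay above 1 in 7 blocks, against 12.0%, and below 1 in 0 blocks, against 12.3%. The same counts chose the chromosome, so nothing further is read from them. Chromosome 3 had a ratio above 1 in 36 of 40 blocks and chromosome 20 in 12 of 13.

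**Figure D2:**
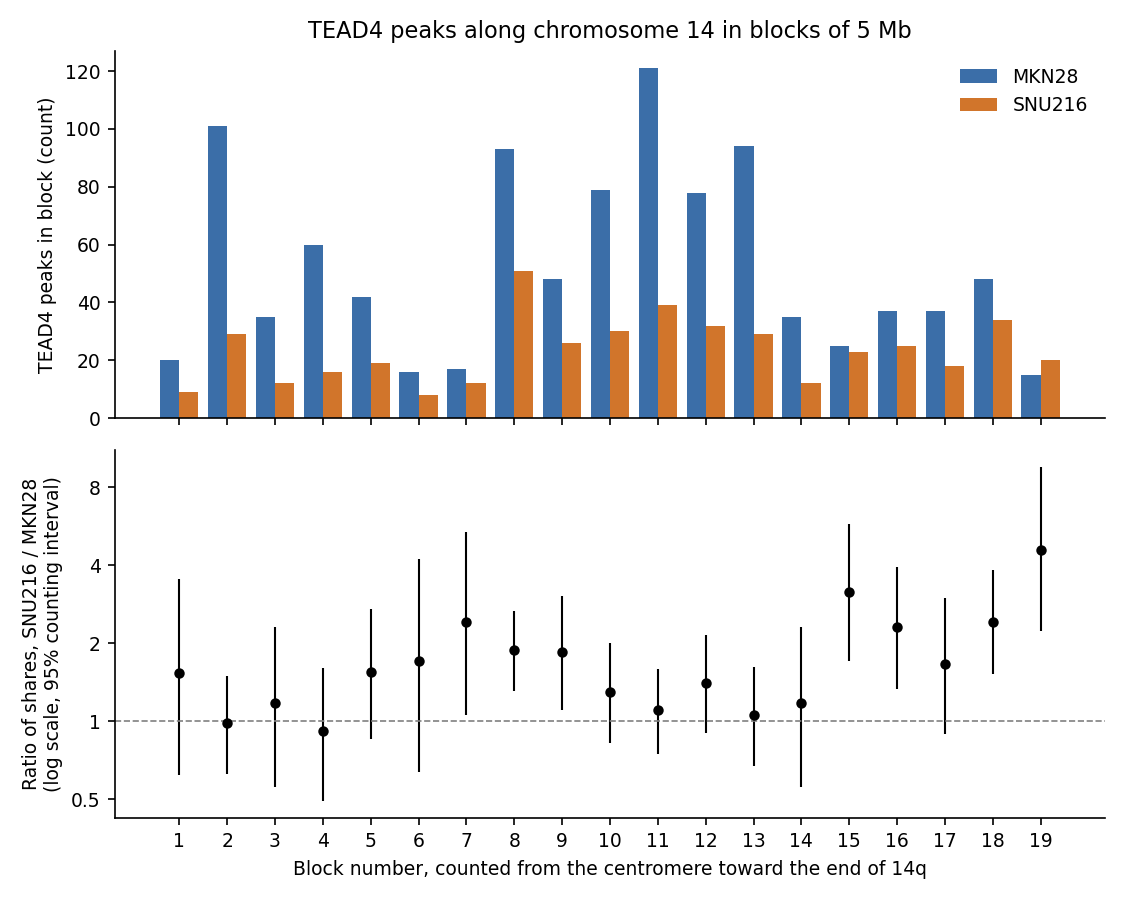
Upper panel, TEAD4 peaks of MKN28 and SNU216 in each 5 Mb block of chromosome 14 (y axis, count), numbered from the centromere (x axis). Lower panel, the ratio of shares per block on a log scale with its 95% counting interval. In 17 of 19 blocks the point lies above the dashed line at 1, and in block 19, the shorter last one, SNU216 has 20 peaks and MKN28 has 15.

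From 20 to 35 Mb the ratio of shares was close to 1. The block from 20 to 25 Mb (14q11.2 to 14q12) held 101 MKN28 and 29 SNU216 peaks, a ratio of 0.98 (0.63 to 1.498). This block was uneven inside. Its 1 Mb window from 23 to 24 Mb held 27 MKN28 and 12 SNU216 peaks, and that from 24 to 25 Mb held 24 and 0. Band 14q11.2 holds the T cell receptor alpha locus and MMP14, which encodes a membrane-anchored matrix metalloproteinase. The next block, from 25 to 30 Mb in 14q12, held 35 and 12 peaks, a ratio of 1.17 (0.55 to 2.32). The block from 30 to 35 Mb held 60 and 16 peaks, the lowest ratio of the chromosome at 0.91 (0.49 to 1.61). None of the 3 intervals excluded 1. Nearer the centromere, the block from 15 to 20 Mb held 20 and 9 peaks, a ratio of 1.54 (0.62 to 3.54).

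Bands of developmental factors best known from other tissues were poor in peaks in both lists. Band 14q13.3, which holds the lung and thyroid factor NKX2-1 and the tooth and thymus factor PAX9, had 7 MKN28 and 2 SNU216 peaks, or 5.83 and 1.67 per Mb. Band 14q21.1, which holds the endodermal pioneer factor gene FOXA1, had 25 and 9 peaks over 5.7 Mb. Band 14q21.2 was the sparsest of all bands in MKN28, at 3.51 peaks per Mb, but had 14 SNU216 peaks to 13 in MKN28. Of those 14, 1 overlapped an MKN28 peak, against 48.0% of SNU216 peaks on chromosome 14 and 59.3% over all chromosomes. Few MKN28 peaks were there to be met. The 3 blocks that cover these bands had ratios of 1.55 (35 to 40 Mb, 42 MKN28 and 19 SNU216 peaks), 1.71 (40 to 45 Mb, 16 and 8) and 2.42 (45 to 50 Mb, 17 and 12). Of these, the interval lay above 1 for the last (1.05 to 5.37). The longest stretch without an SNU216 midpoint, 2.03 Mb from 14q21.2 to 14q21.3, held 4 MKN28 peaks, and the longest without an MKN28 midpoint, 1.45 Mb in 14q12, held 3 SNU216 peaks.

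The block with the most SNU216 peaks ran from 50 to 55 Mb, from 14q21.3 to 14q22.2. It held 51 SNU216 and 93 MKN28 peaks, a ratio of 1.88 (1.31 to 2.67), and had the largest excess of the chromosome, 23.8 SNU216 peaks. Band 14q22.2, the band of the bone morphogenetic protein gene BMP4, had the highest SNU216 density, 13.6 per Mb, with 19 peaks of which 11 overlapped an MKN28 peak. Band 14q22.1, which holds SAV1, FRMD6 and the integrin activator gene FERMT2, had 23 SNU216 and 51 MKN28 peaks, and 8 of the 23 overlapped. The overlapping shares, 57.9% in 14q22.2 and 34.8% in 14q22.1, lay on either side of the chromosome's 48.0%. The next block, from 55 to 60 Mb, held 26 and 48 peaks, a ratio of 1.85 (1.10 to 3.05). In band 14q23.1, SNU216 had 30 peaks and MKN28 41, a ratio of 2.505 (1.51 to 4.11). In the neighbouring 14q23.2, the band of the hypoxia factor gene HIF1A, the counts were 7 and 41, a ratio of 0.58 (0.22 to 1.32).

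MKN28 peaks were numerous between 60 and 80 Mb, where block ratios were between 1.06 and 1.40 and all intervals contained 1. The block from 65 to 70 Mb (14q23.3 to 14q24.1) held 121 MKN28 peaks, the most of the chromosome, and 39 SNU216 peaks, a ratio of 1.10 (0.75 to 1.59). Band 14q24.1 alone had 69 MKN28 and 21 SNU216 peaks in 2.3 Mb, the highest MKN28 density of all its bands. It holds ACTN1, which encodes the actin cross-linker alpha-actinin, and ZFP36L1, which encodes an RNA-binding protein that promotes mRNA decay. Band 14q24.3, the band of FOS, BATF, JDP2, TGFB3 and LTBP2, had 122 MKN28 and 41 SNU216 peaks, a ratio of 1.15 (0.79 to 1.65). Of those 41 SNU216 peaks, 22 overlapped an MKN28 peak (53.7%, against 48.0% on the whole chromosome). From 75 to 80 Mb there were 94 and 29 peaks, a ratio of 1.06 (0.67 to 1.62), and from 80 to 85 Mb 35 and 12, a ratio of 1.17 (0.55 to 2.32). The 3 windows of 1 Mb richest in MKN28 peaks were 69 to 70 Mb (42 MKN28, 9 SNU216), 65 to 66 Mb (41 and 14) and 75 to 76 Mb (33 and 10).

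The ratio was highest over the last 22.3 Mb, from 14q31.3 to the end of the chromosome, and a split at 85 Mb was chosen after the block values were seen. Up to 85 Mb, SNU216 had 324 peaks and MKN28 839, a ratio of 1.32 (1.16 to 1.505). Beyond 85 Mb they had 120 and 162, a ratio of 2.54 (1.99 to 3.23). The split follows from these same counts, so the contrast is a description. The distal stretch thus held 47.9% of the excess on 25.3% of the chromosome's sequence outside heterochromatic bands. The MKN28 density was 12.7 peaks per Mb before the split and 7.25 beyond it, and the SNU216 density was 4.92 and 5.37. Overlapping SNU216 peaks were sparser beyond the split, at 1.92 per Mb against 2.58 before it and 2.43 on the other chromosomes. SNU216 peaks without an MKN28 peak numbered 3.45 per Mb beyond it and 2.34 before it. Both densities before the split still differed from those of the other chromosomes, 14.1 and 4.07 per Mb.

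Within the distal stretch, 4 of the 5 blocks had an interval above 1. From 85 to 90 Mb, MKN28 had 25 peaks and SNU216 had 23, a ratio of 3.15 (1.71 to 5.78). From 90 to 95 Mb the counts were 37 and 25, a ratio of 2.31 (1.33 to 3.95). From 95 to 100 Mb they were 37 and 18, a ratio of 1.67 (0.89 to 3.00). From 100 to 105 Mb, across the imprinted DLK1 and MEG3 locus in 14q32.2, they were 48 and 34, a ratio of 2.42 (1.52 to 3.84). The last block was the only one of the 19 with more SNU216 than MKN28 peaks, 20 against 15, a ratio of 4.56 (2.22 to 9.58). Of those peaks, 15 SNU216 and 14 MKN28 peaks lay from 105 to 106 Mb, and 7 of each overlapped. Over the whole chromosome, 48.0% of SNU216 and 21.1% of MKN28 peaks did. The next window, from 106 to 107 Mb, follows. In that 1 Mb, the band also known for the immunoglobulin heavy chain genes, SNU216 had 4 peaks and MKN28 had 0.

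In description, the ratio of shares was above 1 in most blocks of the long arm and uneven in size. Its interval lay above 1 in 7 of the 19 blocks. The chromosome was chosen for its high ratio, so ratios above 1 in most blocks are no separate result. Leaving out any 1 block kept the chromosome's ratio between 1.47, without the last block, and 1.58, without the block from 20 to 25 Mb. The 5 blocks with the largest excess were 50 to 55, 100 to 105, 85 to 90, 105 Mb to the end and 90 to 95 Mb, and they held 58.9% of the net excess. Without all 5, the ratio was 1.28. For chromosome 3 the same removal of 5 blocks took 35.6% of the excess and left 1.38, and for chromosome 20 it took 67.5% and left 1.205. Chromosomes have unlike numbers of blocks, 40 on chromosome 3 and 13 on chromosome 20, so these percentages are not a ranking. When each chromosome was split at its median MKN28 peak, the parts of chromosome 14 had ratios of 1.43 and 1.61. Their quotient, 1.13, ranked 12 of 23, and the highest was 2.22 on chromosome 4. On chromosome 14 this cut fell at 64.3 Mb, so its second part joined the blocks before 85 Mb with those beyond it. The rank therefore does not measure the contrast on the 2 sides of 85 Mb.

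The share of SNU216 peaks that overlapped an MKN28 peak was the lowest of the 23 chromosomes. Of the 444 SNU216 peaks, 213 overlapped (48.0%, 43.2 to 52.7), against 59.3% over all chromosomes compared. Low shares were also found on chromosomes 20 (51.7%, 47.3 to 56.1), 8 (52.8%, 48.9 to 56.8) and 3 (53.9%, 50.6 to 57.2). Their intervals overlapped that of chromosome 14, so a low share was not particular to it. Of the 1001 MKN28 peaks, 211 overlapped an SNU216 peak (21.1%, 18.6 to 23.7), against 17.1% over all chromosomes (rank 2 of 23). Both shares depend on the number of peaks in each list and are not independent of the counts that chose the chromosome. Overlap was 52.5% (46.9 to 58.0) for SNU216 peaks up to 85 Mb and 35.8% (27.3 to 45.1) beyond it. From 20 to 25 Mb, 24 of 29 SNU216 peaks overlapped (82.8%, 64.2 to 94.1), and from 85 to 90 Mb, 5 of 23 did (21.7%, 7.46 to 43.7). From 40 to 45 Mb, 0 of 8 SNU216 and 0 of 16 MKN28 peaks overlapped.

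The gap in overlap was wider among weak SNU216 peaks than among strong ones, a contrast that was not tested. The score is the authors' own value from their peak caller and is ranked here within 1 list. Peaks were ranked by score and cut into 10 equal groups per list. The lowest-scoring SNU216 group held 64 chromosome 14 peaks, 14.4% of those on the chromosome, and 9 of them overlapped (14.1%, 6.64 to 25.02), against 30.1% on the other chromosomes. In the highest-scoring group 42 of 47 overlapped (89.4%, 76.9 to 96.5), against 91.4%. In the lower-scoring 5 groups together, 67 of 239 overlapped (28.03%, 22.4 to 34.2), against 42.1% elsewhere, and in the upper 5 groups 146 of 205 (71.2%, 64.5 to 77.3), against 77.3%. The excess itself was present at both levels. The ratio of shares was 1.58 (1.35 to 1.84) among lower-scoring and 1.46 (1.23 to 1.72) among higher-scoring peaks. In MKN28, 64 of the 99 chromosome 14 peaks of the highest-scoring group overlapped (64.6%, 54.4 to 74.0), against 49.8% elsewhere.

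**Figure D3:**
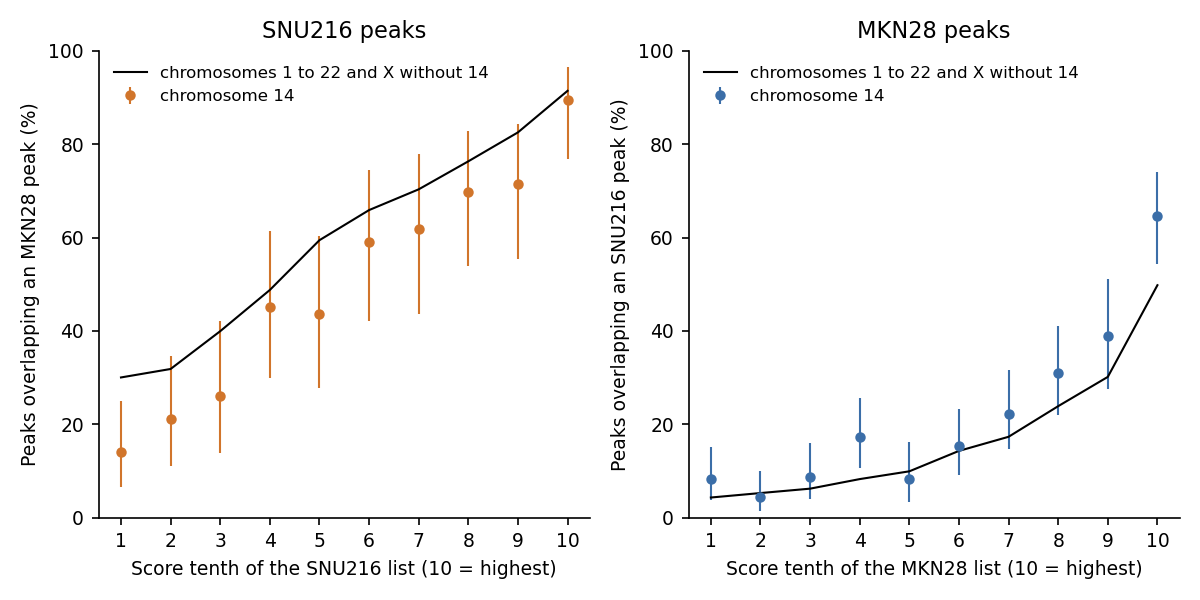
Share of peaks that overlap the other list (y axis, percent) in 10 groups of equal size by score within each list (x axis, 10 is highest), for SNU216 on the left and MKN28 on the right. Points with 95% exact intervals are chromosome 14, and lines are the other chromosomes. SNU216 points lie below the line, at 14.1% against 30.1% in the lowest group, and the 2 come close in the highest group at 89.4% and 91.4%.

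Median scores on chromosome 14 were low in rank in both lists. The median score was 94.1 (88.1 to 102.2) in MKN28, the lowest of the 23 chromosomes, against 99.9 on the others. In SNU216 it was 78.7 (72.5 to 85.8), against 85.2 on the others, and ranked 20 of 23. Both intervals contained the value of the other chromosomes. Overlapping peaks on chromosome 14 had median scores of 191 in MKN28 and 129 in SNU216, and the others 82.4 and 61.1.

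Peak widths on chromosome 14 differed from the rest mainly in MKN28. The median width was 482 bp in MKN28 (473 to 493), against 527 bp on the other chromosomes. It was 409.5 bp in SNU216 (395 to 426), against 408 bp. Since strong peaks are wide, each width was also taken relative to the median of similarly scoring peaks of its list. This relative width was 0.96 (0.93 to 0.97) in MKN28 and 1.003 (0.994 to 1.024) in SNU216. Beyond 85 Mb it was 0.89 (0.85 to 0.92) in MKN28 and 0.998 (0.967 to 1.01) in SNU216, and up to 85 Mb it was 0.97 and 1.01. All 5 distal blocks had an MKN28 median between 0.83 and 0.92. A median of at most 0.92, the highest of these, was found in 7 of the 19 chromosome 14 blocks and in 21.4% of the 583 blocks of all chromosomes. The cutoff was taken from the 5 distal blocks, which were bound to pass it. These counts therefore do not set chromosome 14 apart. Narrow MKN28 peaks, few MKN28 peaks and a high ratio of shares thus fell in the same distal blocks. Across the 19 blocks the ratio went down as MKN28 relative width went up, with a Spearman rho of -0.58. Over the 564 blocks of the other chromosomes rho was -0.06. For SNU216 relative width, rho was -0.32 over the 19 blocks and 0.35 over 562 blocks of the other chromosomes. The ratio of shares used here is the value that chose the chromosome. Blocks share the same 2 libraries and differ in peak number, and the part of peak width in the result was not tested.

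Scores of partner peaks were compared on both sides of the same split. Up to 85 Mb, the median ratio of an SNU216 score to that of its highest-scoring MKN28 partner was 0.58 (0.48 to 0.67) over 170 pairs, against 0.56 over 6620 pairs on the other chromosomes. Beyond 85 Mb it was 1.09 (0.74 to 1.54) over 43 pairs. With scores of at least 100 in both lists, 18 distal pairs remained. The interval of their median, 0.4995 to 1.55, contained 0.58, the proximal value without that minimum. The proximal value with that minimum was not computed. SNU216 had the higher score in 44 of the 170 proximal pairs (25.9%, 19.5 to 33.1), in 25 of the 43 distal pairs (58.1%, 42.1 to 73.0), and in 24.4% of pairs elsewhere. Over the whole chromosome the ratio was 0.64 (0.55 to 0.76). Among blocks with at least 5 pairs, 4 of 16 on chromosome 14 had a median above 1, and all 4 lay beyond 85 Mb. Of 442 such blocks over all chromosomes, 7.47% did. The median score ratio of such blocks rose with their ratio of shares on the other chromosomes as well. Spearman rho was 0.39 over 426 blocks of the other chromosomes and 0.58 over the 16 of chromosome 14. The split was chosen by the ratio of shares, so the distal score ratios are not independent of that choice. Scores depend on the depth of each library, which is unknown, so these ratios describe the 2 libraries and only their change along the chromosome is shown. Scores of partners followed each other loosely, with a Spearman rho of 0.37 over the 213 pairs, which all share 1 library per line.

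**Figure D4:**
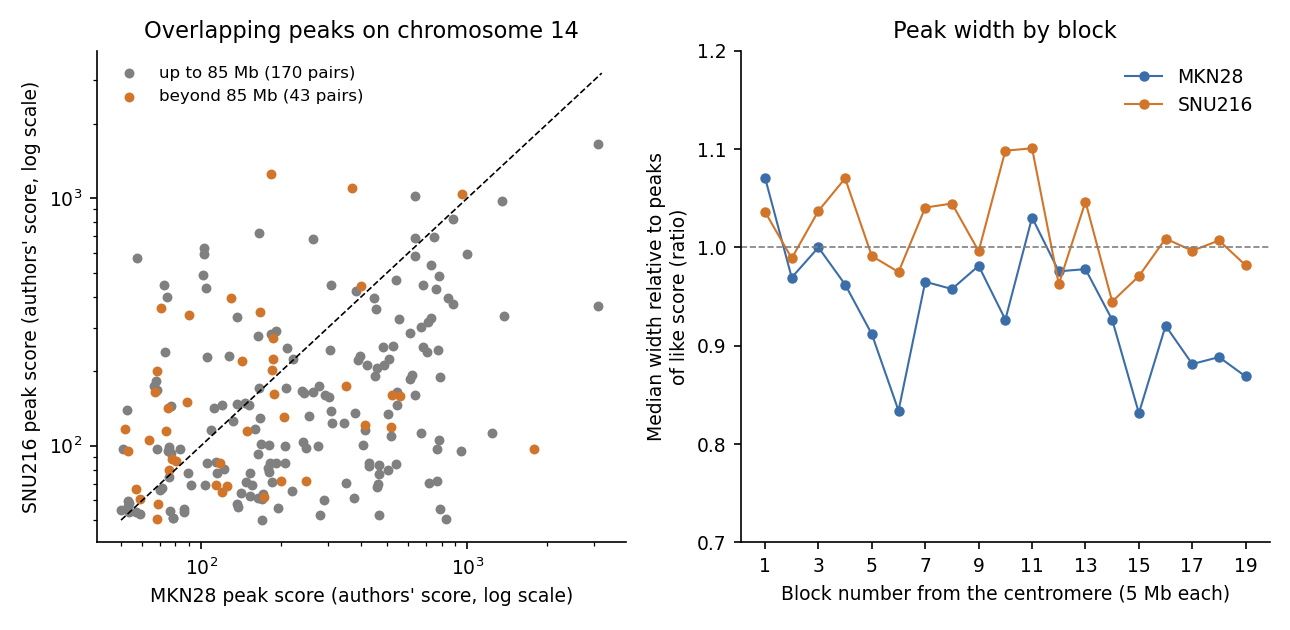
Left, scores of overlapping peaks on chromosome 14 in MKN28 (x axis) and SNU216 (y axis), both on log scales, with equal scores on the dashed line. Right, the median relative width (y axis) in each 5 Mb block from the centromere (x axis), with lines joining neighbouring blocks. Beyond 85 Mb, 25 of 43 pairs lie above the dashed line, and MKN28 medians from block 15 on stay at or below 0.92.

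The strongest site common to both lines was in 14q23.2, the band of HIF1A. In SNU216 it ran from 62221702 to 62222566 with a score of 1658, rank 18 of that list. In MKN28 it ran from 62221653 to 62222424 with a score of 3100, where scores of that list pile up. It was thus strong in both lines although its band had few SNU216 peaks. Each list's 8 strongest overlapping peaks had 3 sites in common, and the other two were in 14q22.2 and 14q32.2. The 14q22.2 site, in the BMP4 band, scored 972 in SNU216 (54718506 to 54719311) and 1353 in MKN28 (54718481 to 54719326). The 14q32.2 site scored 1044 in SNU216 (100046005 to 100046664) and 957 in MKN28 (100046129 to 100046660).

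The other strong SNU216 sites, which were picked for a high SNU216 score, had MKN28 partners from 165 to 882. The next in rank, in 14q32.31 (102745982 to 102746719), scored 1257 and its MKN28 partner 182. Another, in 14q32.12 (93509590 to 93510279), scored 1101 and its partner 368. In 14q24.1, the band of ZFP36L1, one at 69154402 to 69155007 scored 1016 with a partner at 638, and one at 68606837 to 68607431 scored 724 with a partner at 165. The remaining one of the 8, in 14q21.3 (49971987 to 49972583), scored 821 with a partner at 882. SNU216 had the higher score in 5 of these 8 pairs, and 3 of the 8 lay beyond 85 Mb. Of all 213 overlapping SNU216 peaks of the chromosome, 43 lay there.

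The strongest MKN28 peak of the chromosome, in 14q11.2 (20107932 to 20108731), scored 3105, rank 6 of its list. Its SNU216 partner scored 365. A peak in 14q31.3 (85714954 to 85716207) scored 1784 in MKN28 and 97.2 in SNU216, with a relative width of 1.48 in MKN28. It lies in the distal stretch, where SNU216 had the higher score in 25 of 43 pairs. In 14q24.3, the band of FOS and JDP2, a peak at 75919425 to 75920490 scored 1373 and its partner 333. The remaining ones were in 14q12 (1234 against 113) and 14q23.1 (1001 against 595). MKN28 had the higher score in 7 of its 8 pairs.

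Some strong sites were called in 1 line only. The 5 named for MKN28 ranked 135 to 1184 among its 39477 peaks, and the 5 named for SNU216 ranked 509 to 872 among its 11540. The strongest MKN28 peak without an SNU216 peak was in 14q23.3 (65112013 to 65112705, score 1840), and the nearest SNU216 midpoint was 62.4 kb away. The next were in 14q24.3 (77780269 to 77780767, score 1199, and 74219285 to 74220298, score 1104), 14q24.1 (69408481 to 69409214, score 1052) and 14q12 (24732693 to 24733603, score 835). None of these 5 lay beyond 85 Mb, where 162 of the 1001 MKN28 peaks of the chromosome lay, so nothing is read from this count. The strongest SNU216 peak without an MKN28 peak was in 14q22.1, the band of SAV1 and FRMD6 (51909381 to 51909930, score 481, rank 509 of the list). The third, in the same band, ran from 51862769 to 51863667 with a score of 414 and a relative width of 1.54. The others were in 14q32.12 (93512364 to 93512803, score 432), 14q24.3 (77120729 to 77121445, score 369) and 14q32.2 (97249520 to 97250104, score 360). The 14q32.12 peak lay 1.95 kb from an MKN28 midpoint, beside the strong common site of that band. All 5 SNU216 peaks with a score of at least 1000 overlapped an MKN28 peak, and 7 of the 11 MKN28 peaks at that level overlapped an SNU216 peak. Shares over all chromosomes at that level were not computed. In the highest-scoring of the 10 score groups, 91.4% of SNU216 and 49.8% of MKN28 peaks on the other chromosomes overlapped. The counts are therefore not read as particular to chromosome 14.

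Dense SNU216 windows and dense MKN28 windows were only partly the same. SNU216 had most peaks in the 1 Mb windows from 54 to 55 Mb (15 SNU216, 22 MKN28) and from 105 to 106 Mb (15 and 14), then from 50 to 51 Mb (14 and 24) and 65 to 66 Mb (14 and 41). The last was among the 3 densest of MKN28 as well. The excess was present in light and dark Giemsa bands, which are broadly gene-rich and gene-poor. The ratio was 1.46 (1.25 to 1.71) in light bands of chromosome 14, against 0.94 in those of the other chromosomes, and 1.59 (1.34 to 1.87) in dark bands, against 1.04.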

How the data were processed

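Per the submitters' processing notes, CASAVA 1.8, Bowtie2 2.0.0, MACS and the build hg19 were used, with no settings named. For each TEAD4 library the authors deposited 1 peak list, whose name gives the line's own input as control. The score per peak, in an unstated unit, was written by the authors' peak caller, MACS (lowest 50.00 in MKN28 and 50.01 in SNU216). Lists were not pooled. Depth is unknown, since the lists hold no read counts, and the input libraries were not analysed here. Blocks, bands (circlize 0.4.16, hg19) and splits use peak midpoints. The ratio of shares is over chromosomes 1 to 22 and X (39443 MKN28 and 11522 SNU216 peaks), its interval from the exact Clopper-Pearson interval of the SNU216 part of the pooled peaks. Intervals of medians are exact order-statistic intervals. Relative width used 50 groups by score rank. Named are the 8 strongest overlapping and 5 strongest other peaks of each list (ties by width). The members, bands and rules were chosen with earlier results of these data known. The planned gene lists, nearest starts and motifs were not run, because no hg19 annotation or genome was used. Code was tested on simulated lists. Python 3.11.15, numpy 2.4.6, pandas 2.3.3, scipy 1.17.1 and matplotlib 3.10.9 were used.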

Additional observations from a re-analysis of the deposited data

How the results depend on the processing

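The ratio of shares on chromosome 14 was 1.45 with scores of 100 or more. It was 1.70 with MKN28 cut to the length of the SNU216 list, and it stayed within its interval in the other settings. The count of blocks with a ratio above 1 changed by construction with block size, to 33 of 40 blocks of 2 Mb and 10 of 10 blocks of 10 Mb. At a score of at least 100 it was 13 of 16. The share of SNU216 peaks overlapping was 63.4% with scores of 100 or more, 26.8% for lists of equal length and 43.02% when 50% of both peaks had to overlap. The share of MKN28 peaks overlapping was 45.2% for lists of equal length, where only high-scoring MKN28 peaks remain. Overlap over all chromosomes was not computed in these settings. The shares therefore do not show how chromosome 14 compares with the others there. The score minimum by construction raised the median scores to 184 in MKN28 and 195 in SNU216, and the median widths to 576 and 530 bp. In settings added after seeing the data, the ratio beyond 85 Mb was 3.64 for lists of equal length, and from 2.29 to 2.48 in the 6 others. In the settings run, the ratios of the whole chromosome, of the part up to 85 Mb and of the part beyond it stayed above 1. Single blocks did not all do so, as the counts of blocks show. The distal median score ratio of partners was 1.09 with scores of 100 or more, with a wider interval (0.4995 to 1.55) over 18 pairs. That interval contained the proximal 0.58, which is from pairs of all scores. Of the 16 named overlapping peaks, 15 overlapped by 50% of both and 14 had midpoints within 200 bp. No replicate could be left out, and no paired analysis was possible because each line has 1 library. Sequencing depth is unknown, so a peak found in 1 line cannot be read as absence in the other.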
